A study of Mus musculus with 8 samples.

Results

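Enzymes that build mucin-type sugar chains were followed in the intestine of recipient mice. The genes were taken by name from the table of all genes. A gene counted as a member when it was protein-coding, its mouse symbol was Galnt, C1galt1, Gcnt, B3gnt, B3galt, B4galt, St3gal, St6gal, Fut or Chst with a number or nothing after it, and its mean level over the 8 libraries was at least 0.5 FPKM (reads per length of gene and size of library). This gave 61 members of 73 genes with such names, out of 16865 genes at that level and 49585 gene identifiers in all. Nearest to the limit, Chst8 averaged 0.699 FPKM inside it and B3galt1 0.484 FPKM outside it.

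RNA came from 4 mice named as recipients of Klebsiella and 4 named as recipients of Lactobacillus, all of strain C57BL/6. Both are genera of gut bacteria. No untreated mice were analysed here. The labels name the tissue only as intestine, with no segment, and give neither age and sex nor the way and time of the bacterial treatment. The epithelial marker Epcam was at 611 to 689 FPKM and Hoxb13, a homeobox gene of the distal gut, at 81.03 to 237 FPKM. Fabp1, a fatty acid binding protein abundant in the small intestine, reached at most 0.444 FPKM. Of 5 small intestine genes listed, only Alpi averaged at least 0.5 FPKM, at 0.238 to 5.35 FPKM. Alpi was highest in Klebsiella recipient 3 (5.35 FPKM) and Lactobacillus recipient 2 (3.18 FPKM). Libraries held 40455910 to 55447220 reads after the authors' filter, and 72919 to 105833 reads in the 61 members. The libraries of Klebsiella recipient 3 and Lactobacillus recipient 2 stood apart in Hoxb6, a homeobox gene that marks position along the gut, at 40.2 and 45.2 FPKM against 1.16 to 3.87 FPKM in the others.

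Mucins are proteins of mucus and of the cell surface that carry dense sugar chains. A Galnt enzyme initiates a chain by adding N-acetylgalactosamine to serine or threonine. C1galt1, B3gnt6 and the Gcnt enzymes then form the core structures and branches, the other B3gnt, B3galt and B4galt enzymes extend them with N-acetylglucosamine and galactose, and sialic acid, fucose or sulfate caps the ends. The families also hold enzymes with other main substrates, such as B4galt7 and B3galt6, which build the linkage of proteoglycans, and Fut8, which fucosylates the core of N-linked chains. By role the members were 13 initiating enzymes, 6 core and branching enzymes, 15 extending enzymes, 7 sialyltransferases, 7 fucosyltransferases, 11 sulfotransferases and the 2 proteoglycan linkage enzymes.

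Promoter sequences from RefSeq (build GRCm38.p6) matched 48 of the 61 members. Of these, 4 are shown as examples from the results below. B4galt1 and Gcnt4 were among the 7 members with an unadjusted p under 0.05 between recipients (limma), and Gcnt4 had the largest p of the 7. Galnt10 and St3gal4 were highest and lowest, in that order, in the pair of libraries with high Hoxb6. Each of the 4 sequences runs 5′ to 3′ and is taken from the 250 bases before a RefSeq start. It was shortened where needed so that it holds no GENCODE M21 exon base of the gene. The St3gal4 window lies within the gene as GENCODE M21 draws it (chromosome 9 from 35046576 to 35119268), between exons. The other 3 lie before the annotated gene. Capitals mark GGGCGG, the GC box bound by Sp and Klf factors, on either strand (CCGCCC on the other).

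B4galt1, chr4:40854006-40854234, minus strand: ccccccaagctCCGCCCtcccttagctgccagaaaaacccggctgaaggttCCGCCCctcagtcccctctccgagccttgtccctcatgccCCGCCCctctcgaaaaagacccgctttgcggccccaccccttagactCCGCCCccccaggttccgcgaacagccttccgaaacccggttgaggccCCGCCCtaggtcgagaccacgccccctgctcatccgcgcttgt
Gcnt4, chr13:96924463-96924688, plus strand: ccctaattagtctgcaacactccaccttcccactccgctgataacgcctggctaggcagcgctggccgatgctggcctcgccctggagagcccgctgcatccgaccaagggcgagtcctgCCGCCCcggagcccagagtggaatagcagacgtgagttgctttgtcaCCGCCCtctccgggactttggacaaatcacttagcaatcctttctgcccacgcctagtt
Galnt10, chr11:57645192-57645441, plus strand: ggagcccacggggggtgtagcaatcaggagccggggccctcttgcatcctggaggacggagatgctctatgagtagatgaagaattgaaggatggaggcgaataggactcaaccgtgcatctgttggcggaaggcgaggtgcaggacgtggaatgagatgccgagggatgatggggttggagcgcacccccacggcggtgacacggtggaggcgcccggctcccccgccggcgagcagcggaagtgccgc
St3gal4, chr9:35116874-35117114, minus strand: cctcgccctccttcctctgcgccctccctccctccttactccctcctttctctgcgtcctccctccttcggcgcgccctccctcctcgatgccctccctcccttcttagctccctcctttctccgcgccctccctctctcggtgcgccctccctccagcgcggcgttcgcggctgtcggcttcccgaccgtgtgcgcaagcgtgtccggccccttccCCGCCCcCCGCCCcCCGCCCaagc

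The GC box occurred 5 times in the B4galt1 window, 2 times in that of Gcnt4 and 3 times in that of St3gal4, and was not in the Galnt10 window. Over the full 250 bases before the RefSeq start, 60.4% of the 48 members held it, against 32.7% of the 32851 entries of the table. Each member was counted once, while the entries include noncoding genes, genes at any level and further starts of a gene, so the sets are unlike. The share among protein-coding genes at the members' level was not counted. TATAAA, the TATA box, was in 2.08% of the members and 12.4% of the entries. TTTAT, a core shared by CDX and posterior HOX proteins, which overlaps with the reverse of the TATA box, was in 18.8% of the members and 37.3% of the entries. These are matches of letters on both strands, not binding sites.

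The levels differed widely among the members. Averages over the libraries were at least 100 FPKM for 5 members, between 10 and 100 for 23 and lower for 33. All 61 had reads in every library. Each level is per gene length, so members can be set side by side.

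Initiation was spread over many enzymes. The leading gene, Galnt7, held 20.4% of the summed initiation level, followed by Galnt10 with 16.99% and Galnt3 with 13.9%. Galnt7, which acts mainly on peptides that already carry N-acetylgalactosamine, was at 73.98, 93.4, 101 and 72.1 FPKM in Klebsiella recipients 1 to 4, against 74.8, 84.1, 83.6 and 84.96 FPKM in Lactobacillus recipients 1 to 4. Galnt10, of like preference, was at 64.6, 72.9, 93.5 and 59.5 FPKM in Klebsiella and 72.2, 74.1, 67.9 and 50.3 FPKM in Lactobacillus recipients. These groups overlapped for both. Galnt1, a broadly expressed initiating enzyme, had the smallest spread of all members, 45.4 to 53.1 FPKM, with an SD of log2 values of 0.0638. Galnt12, Galnt4 and Galnt6 averaged 48.3, 42.5 and 32.2 FPKM, and the other 6 between 1.14 and 9.91 FPKM.

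Core formation showed the widest spread between libraries. C1galt1, which makes core 1, held 48.5% of the summed level and was at 34.2, 47.5, 54.9 and 40.5 FPKM in Klebsiella and 35.9, 42.1, 32.9 and 40.4 FPKM in Lactobacillus recipients. Gcnt3, the mucin-type core 2 and core 4 branching enzyme, was at 10.6, 21.5, 57.3 and 12.9 FPKM in Klebsiella and 10.003, 36.6, 13.03 and 17.1 FPKM in Lactobacillus recipients. B3gnt6, which makes core 3, was at 3.39, 16.3, 22.9 and 1.82 FPKM in Klebsiella and 3.06, 11.04, 0.644 and 0.625 FPKM in Lactobacillus recipients. Across the 8 libraries Gcnt3 thus spanned 5.73-fold and B3gnt6 36.6-fold, and both groups of mice held low and high libraries. Gcnt1, the more widely expressed core 2 enzyme, was at 5.54, 6.94, 6.47 and 6.85 FPKM in Klebsiella and 6.13, 7.29, 6.82 and 19.6 FPKM in Lactobacillus recipients, level in 7 libraries and apart in the last. Gcnt2, the branching enzyme of the I antigen, was at 3.71 to 5.59 FPKM.

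Extension was led by enzymes of type 1 and poly-lactosamine chains. B3gnt7, which adds N-acetylglucosamine, was at 349.5, 300.4, 139 and 302 FPKM in Klebsiella and 284, 164, 324 and 234 FPKM in Lactobacillus recipients. B3galt5, which makes type 1 chains, was at 140.4, 178, 172 and 190.2 FPKM in Klebsiella and 166, 157, 226 and 137 FPKM in Lactobacillus recipients. B3gnt3, which extends core 1, was at 105, 109.9, 90.6 and 109 FPKM in Klebsiella and 118, 84.4, 93.5 and 83.3 FPKM in Lactobacillus recipients. The 3 genes held 34.3%, 22.4% and 12.99% of the summed extension level, and their groups overlapped.

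Capping was concentrated in fewer genes than initiation or extension, whose classes also hold more members. St3gal4 and St3gal6, sialyltransferases that act on terminal galactose, held 48.8% and 35.3% of the sialyltransferase level. St3gal4 was at 286, 327, 233 and 422 FPKM in Klebsiella and 311, 253, 264 and 389.9 FPKM in Lactobacillus recipients. St3gal6 was at 250.1, 219, 156 and 258 FPKM in Klebsiella and 211, 197, 246 and 264 FPKM in Lactobacillus recipients. St6gal1, the main enzyme that sialylates N-linked chains in the other linkage, was at 37.01, 48.1, 60.6 and 44.1 FPKM in Klebsiella and 37.2, 51.2, 51.8 and 44.3 FPKM in Lactobacillus recipients. None of these 3 separated the recipients.

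Fut2, the secretor enzyme that puts terminal fucose on gut mucins, held 61.99% of the fucosyltransferase level. It was at 120.1, 151, 209.9 and 162 FPKM in Klebsiella recipients 1 to 4, against 129, 181, 153 and 102 FPKM in Lactobacillus recipients 1 to 4. The groups overlapped. The log2 difference was 0.19 with a 95% confidence interval from -0.28 to 0.66 (limma, adjusted p 0.853). Fut8 was at 32.7, 41.3, 39.02 and 41.9 FPKM in Klebsiella and 34.5, 39.4, 48.3 and 40.7 FPKM in Lactobacillus recipients. Fut4, which makes Lewis x type fucose, was at 35.1, 33.7, 29.2 and 34.1 FPKM in Klebsiella and 28.003, 35.5, 41.8 and 39.01 FPKM in Lactobacillus recipients. Fut1, the close relative of Fut2, was much lower, at 0.857 to 2.39 FPKM.

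Among sulfotransferases Chst4, a GlcNAc 6-O-sulfotransferase, held 62.5% of the summed level and is described below. Chst12, a chondroitin sulfotransferase, was at 9.78, 9.95, 13.5 and 4.799 FPKM in Klebsiella and 9.31, 5.58, 7.59 and 9.06 FPKM in Lactobacillus recipients. Chst15, which acts on chondroitin sulfate, was at 8.52, 9.72, 9.54 and 6.396 FPKM in Klebsiella and 7.02, 8.97, 9.28 and 9.98 FPKM in Lactobacillus recipients. The proteoglycan linkage enzyme B4galt7 was at 8.63, 10.1, 10.7 and 12.5 FPKM in Klebsiella and 10.4, 11.8, 13.4 and 11.3 FPKM in Lactobacillus recipients, and B3galt6 at 3.005, 2.21, 2.47 and 2.59 FPKM in Klebsiella and 2.73, 3.19, 1.92 and 2.56 FPKM in Lactobacillus recipients. Recipients overlapped for all 4 of these genes. Fewer cells of a type and less RNA per cell cannot be told apart in such bulk samples.

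**Figure D1:**
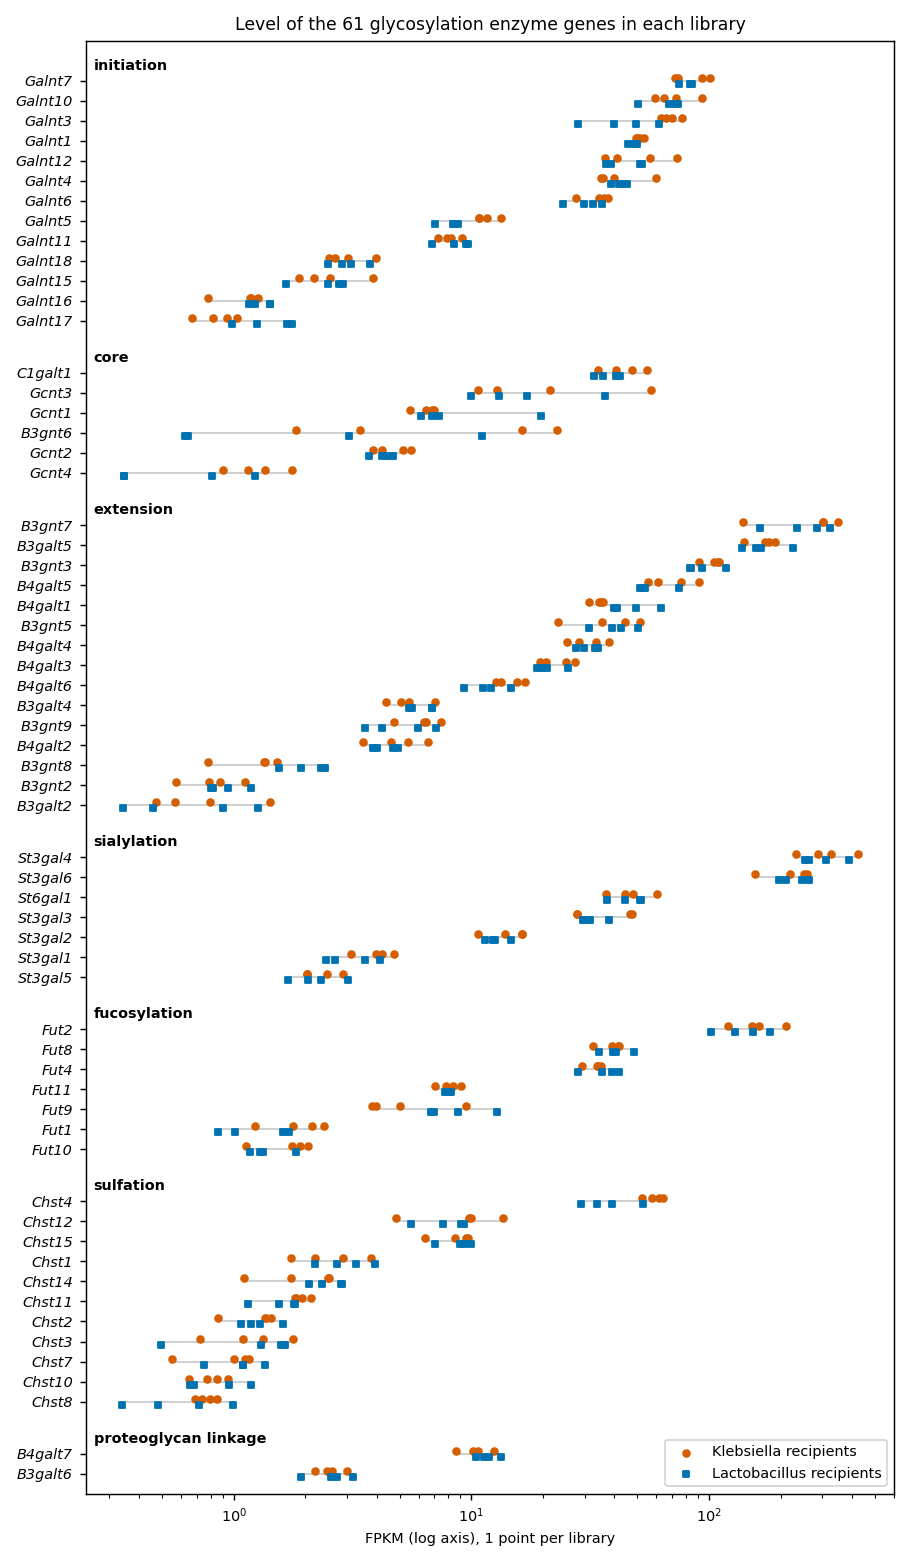
FPKM (log axis) of the 61 members in each library, grouped by role, with Klebsiella recipients as circles above and Lactobacillus recipients as squares below on each line. St3gal4, B3gnt7, St3gal6, B3galt5 and Fut2 are the highest members, and B3gnt6 and Gcnt3 have the longest ranges, 0.625 to 22.9 FPKM and 10.003 to 57.3 FPKM.

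The 12 genes named alike but below the level included Galnt2, elsewhere a widespread initiating enzyme, at a mean of 0.0805 FPKM, and B3gnt4, listed at 0 in every library. Of the exon bases of Galnt2, 90.0% are shared in GENCODE M21 with Gm20388 on the same strand or a gene on the other, and of those of B3gnt4 93.2% with Diablo on the other strand. Gm20388 is itself listed at 0 in all 8 libraries. The member B3gnt2 averaged 0.889 FPKM with 66.0% of its exon bases shared, and Gm28048, which covers it on the same strand, is also listed at 0. The counting of reads in shared bases was not stated, so the levels of these 3 genes are uncertain. The same doubt holds, at smaller shares, for other members, such as B4galt2 (28.17%), St3gal6 (25.97%), St3gal4 (14.1%) and B3gnt7 (12.57%). Among the members with an unadjusted p under 0.05 between recipients (limma), B3gnt8 shared 18.09%, Gcnt4 10.52% and Galnt5 5.31%. B4galt1, Galnt3, Galnt17 and Chst4 shared none. No exon bases were shared with another gene for 40 of the 61 members.

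Between the recipients no member passed the test over all genes. The levels were compared as log2(FPKM + 0.5) with limma, Klebsiella minus Lactobacillus, which understates changes of low genes. At an adjusted p under 0.05, 0 of 61 members and 0% of the 16865 genes tested were called, and the smallest adjusted p of a member was 0.774. An unadjusted p under 0.05 was reached by 7 members, or 11.5%, against 6.07% of all genes. Voom on the reads recovered from FPKM also called 0 genes, with 8 members at an unadjusted p under 0.05 (13.1%, against 6.15% of all genes in that fit). Of the 7 members, 4 had a positive difference (2.55% of all genes) and 3 a negative one (3.52% of all genes). With FPKM rescaled to a constant total the members kept this split of 4 and 3, while over all genes the share of positive differences among those at an unadjusted p under 0.05 was 58.2%, against 42.0% before. In 4 members, or 6.56%, the groups did not overlap, against 2.99% of all genes: Galnt5 and Galnt3 were higher in every Klebsiella recipient (1.19% of all genes), and B4galt1 and B3gnt8 lower (1.80%). The median log2 difference was 0.052 over the members and -0.017 over all genes, with 37 of 61 members positive against 46.4% of all genes.

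By role the groups lay close together. The summed level of the initiating enzymes was 433 ± 54.2 FPKM in Klebsiella and 384 ± 32.9 FPKM in Lactobacillus recipients (SD, n = 4 each), with 8 of 13 members positive and a median log2 difference of 0.061. Core and branching enzymes summed to 93.4 ± 40.3 FPKM in Klebsiella and 75.8 ± 20.8 FPKM in Lactobacillus recipients (SD, n = 4 each), with 5 of 6 positive and a median of 0.23 (-0.065 with the distal gut gene Hoxd13 as a covariate). Extending enzymes summed to 778 ± 113 FPKM in Klebsiella and 749 ± 116 FPKM in Lactobacillus recipients (SD, n = 4 each), with 9 of 15 positive and a median of 0.079. Each of these 3 sums differed between the groups by less than the larger SD.

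Among the classes counted as capping only the sulfotransferase sums were further apart. These classes also hold enzymes of other main substrates, such as Chst12, Chst15 and Fut8. Sialyltransferases summed to 643 ± 104 FPKM in Klebsiella and 631 ± 83.4 FPKM in Lactobacillus recipients (SD, n = 4 each), with 6 of 7 positive and a median of 0.052, and fucosyltransferases to 249.8 ± 35.7 FPKM in Klebsiella and 238 ± 35.2 FPKM in Lactobacillus recipients (SD, n = 4 each), with 4 of 7 positive and a median of 0.0029. Sulfotransferases summed to 88.5 ± 4.72 FPKM in Klebsiella and 67.7 ± 10.2 FPKM in Lactobacillus recipients (SD, n = 4 each), with 5 of 11 positive and a median of -0.037. By library the sulfotransferases summed to 86.1, 95.2, 88.3 and 84.4 FPKM in Klebsiella and 81.6, 60.8, 68.8 and 59.5 FPKM in Lactobacillus recipients. This sum alone differed by more than either SD. Its highest member, Chst4, averaged 58.9 FPKM in Klebsiella and 38.7 FPKM in Lactobacillus recipients, which made up nearly all of the difference between the sums. Both proteoglycan linkage enzymes had small negative differences, -0.16 for B4galt7 and -0.0053 for B3galt6 (0.018 with FPKM rescaled to a constant total and 0.013 with median-of-ratios factors).

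**Figure D2:**
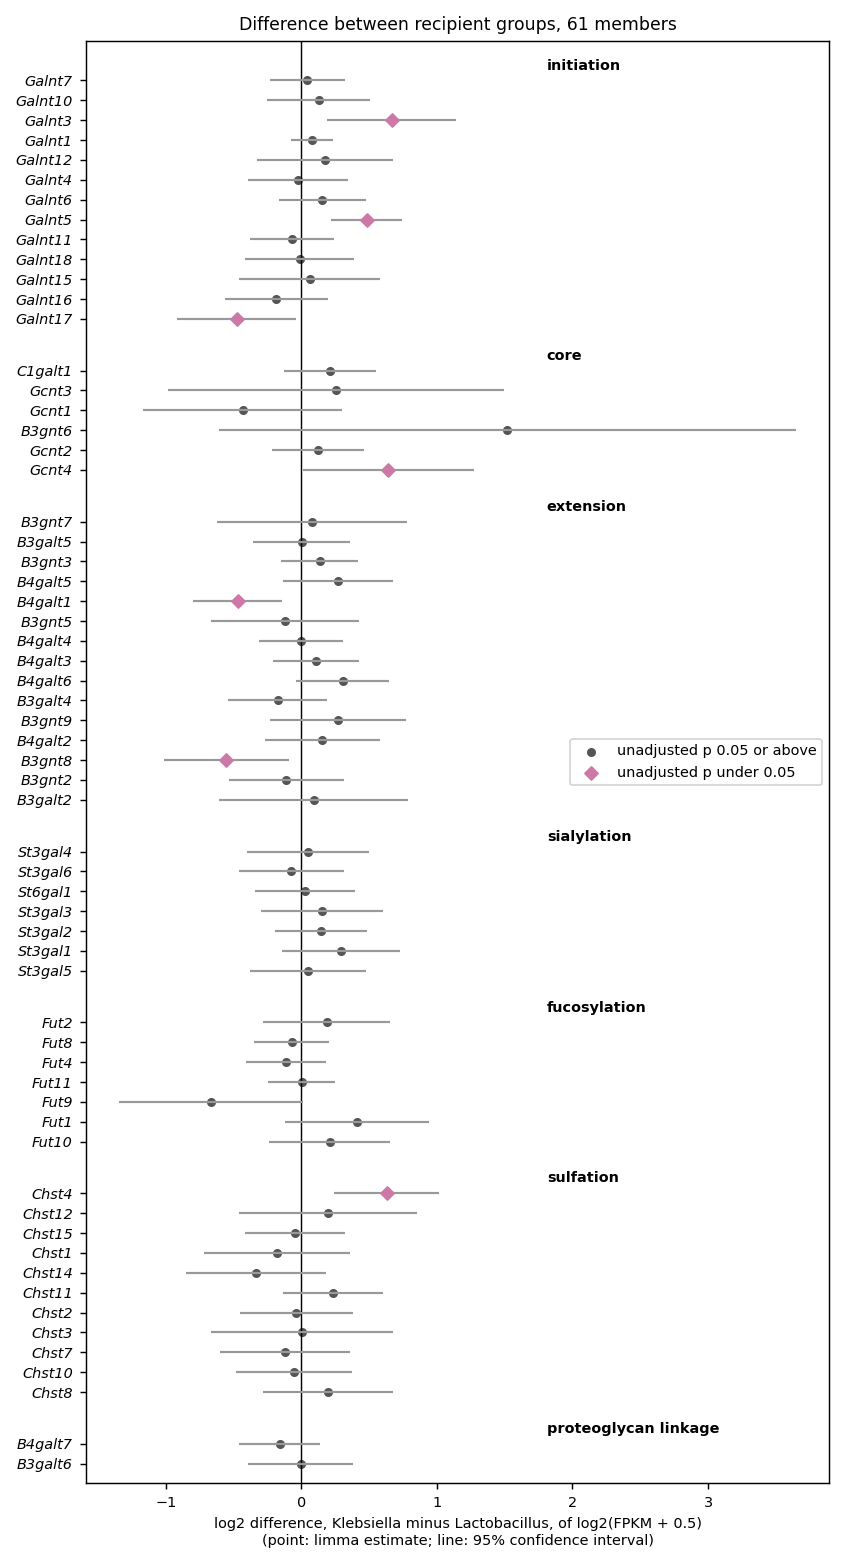
Limma log2 difference (Klebsiella minus Lactobacillus, of log2(FPKM + 0.5)) of each member with its 95% confidence interval, grouped by role. Diamonds mark the 7 members with an unadjusted p under 0.05, of which 4 lie to the right of 0 and 3 to the left.

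Among initiating enzymes, Galnt5 had the smallest p of all members. Galnt5, ENSMUSG00000026828 on chromosome 2 from 57997884 to 58045860 (GRCm38), was at 11.7, 10.8, 13.3 and 10.8 FPKM in Klebsiella recipients 1 to 4, against 8.77, 8.45, 8.41 and 7.06 FPKM in Lactobacillus recipients 1 to 4. Every Klebsiella library lay above every Lactobacillus library. The means were 11.6 ± 1.21 against 8.17 ± 0.7601 FPKM (SD, n = 4 each), with a log2 difference of 0.48 (SE 0.12, limma unadjusted p 0.002395, adjusted p 0.774), from 728 to 859 reads in Klebsiella recipients and 489 to 718 reads in Lactobacillus recipients. Without any single library its difference stayed between 0.42 and 0.52.

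Galnt3, an initiating enzyme best known for protecting the hormone FGF23, lies on chromosome 2 from 66082766 to 66124994 and was at 69.6, 65.998, 62.8 and 76.8 FPKM in Klebsiella recipients 1 to 4, against 61.7, 49.3, 40.03 and 28.2 FPKM in Lactobacillus recipients 1 to 4. The groups did not overlap, though Lactobacillus recipient 1 came close to the lowest Klebsiella library. The means were 68.8 ± 5.997 against 44.8 ± 14.2 FPKM (SD, n = 4 each), with a log2 difference of 0.67 (SE 0.21, limma unadjusted p 0.0116, adjusted p 0.774). Galnt17, a relative expressed mainly in brain, was low, at 0.819, 0.942, 1.03 and 0.6705 FPKM in Klebsiella and 1.68, 0.9802, 1.77 and 1.25 FPKM in Lactobacillus recipients. Its groups overlapped, with a log2 difference of -0.48 (SE 0.19, limma unadjusted p 0.0365, adjusted p 0.774) from 36 to 56 reads in Klebsiella recipients and 60 to 118 reads in Lactobacillus recipients.

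Among core enzymes, Gcnt4, a further core 2 branching enzyme, was at 1.14, 0.899, 1.35 and 1.76 FPKM in Klebsiella recipients 1 to 4, against 0.809, 1.23, 0.345 and 0.347 FPKM in Lactobacillus recipients 1 to 4. Lactobacillus recipients 3 and 4 were low and the groups overlapped, with a log2 difference of 0.64 (SE 0.28, limma unadjusted p 0.0471, adjusted p 0.774) from 88 to 156 reads in Klebsiella recipients and 31 to 124 reads in Lactobacillus recipients. B3gnt6 had the largest difference of any member, 1.52, and the largest error (SE 0.94, limma unadjusted p 0.141, adjusted p 0.774). Its 95% confidence interval ran from -0.61 to 3.65. It lay between 0.99 (without Klebsiella recipient 3) and 2.22 when single libraries were left out, and was 0.73 without the Ctrb1-rich pair given below and 0.11 with Hoxd13 as a covariate. The difference of Gcnt1, -0.43, was -0.062 without Lactobacillus recipient 4.

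Among extending enzymes, B4galt1, which adds galactose to N-acetylglucosamine, lies on chromosome 4 from 40804602 to 40854005. It was at 35.01, 35.8, 34.6 and 31.3 FPKM in Klebsiella recipients 1 to 4, against 39.8, 40.9, 49.4 and 63.1 FPKM in Lactobacillus recipients 1 to 4. Each Klebsiella library lay below each Lactobacillus library. The means were 34.2 ± 1.99 against 48.3 ± 10.8 FPKM (SD, n = 4 each), with a log2 difference of -0.47 (SE 0.14, limma unadjusted p 0.009905, adjusted p 0.774). B3gnt8, which extends poly-lactosamine, was at 1.35, 1.36, 1.53 and 0.777 FPKM in Klebsiella and 1.56, 1.92, 2.42 and 2.33 FPKM in Lactobacillus recipients, again with no overlap and with a log2 difference of -0.55 (SE 0.20, limma unadjusted p 0.0235, adjusted p 0.774) from 33 to 64 reads in Klebsiella recipients and 61 to 128 reads in Lactobacillus recipients.

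Chst4, the leading sulfotransferase, lies on chromosome 8 from 110029153 to 110039740 and was at 57.5, 61.9, 52.5 and 63.8 FPKM in Klebsiella recipients 1 to 4, against 52.9, 33.9, 39.3 and 28.9 FPKM in Lactobacillus recipients 1 to 4. Lactobacillus recipient 1 reached the level of the lowest Klebsiella library, so the groups overlapped slightly. The means were 58.9 ± 5.04 against 38.7 ± 10.3 FPKM (SD, n = 4 each), with a log2 difference of 0.63 (SE 0.17, limma unadjusted p 0.00506, adjusted p 0.774). Among fucosyltransferases the smallest p was that of Fut9, which makes Lewis x, at 9.52, 4.99, 3.97 and 3.83 FPKM in Klebsiella and 6.75, 6.98, 8.75 and 12.9 FPKM in Lactobacillus recipients, with a log2 difference of -0.66 (SE 0.30, limma unadjusted p 0.0544, adjusted p 0.774). Klebsiella recipient 1 lay within the Lactobacillus range.

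**Figure D3:**
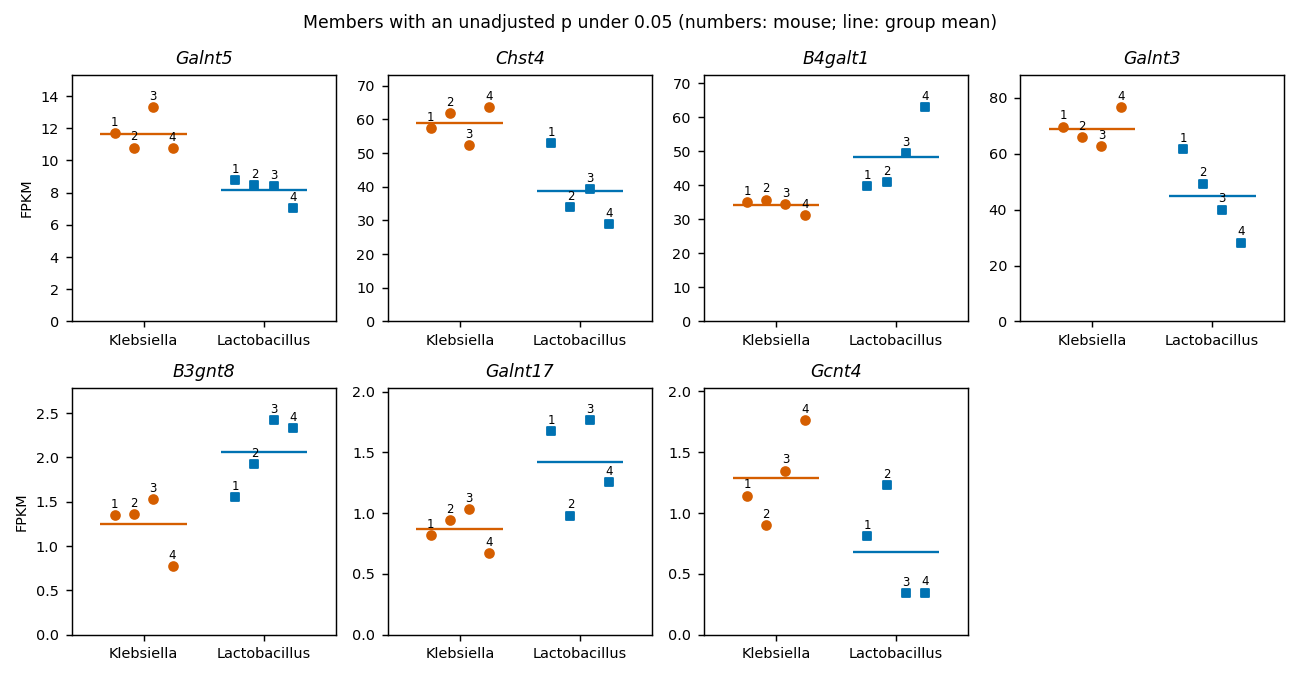
FPKM by mouse (numbers) in Klebsiella (left) and Lactobacillus recipients (right) of the 7 members with an unadjusted p under 0.05, with the group mean as a line. Groups are apart for Galnt5, B4galt1, Galnt3 and B3gnt8, and overlap for Chst4, Galnt17 and Gcnt4.

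Of these 7, Galnt5, Galnt3, Chst4 and B4galt1 stayed at an unadjusted p under 0.05 whichever library was left out. B3gnt8 did so in 5 of 8 such fits and lost it without Klebsiella recipient 4 or Lactobacillus recipient 3 or 4. Galnt17 kept it only without Klebsiella recipient 3 or Lactobacillus recipient 2 or 4, and Gcnt4 only without recipient 2 of either group. Without Lactobacillus recipient 3 alone, 4 members (6.56%) were left, against 3.36% of all genes in that fit. Ctrb1, a pancreatic protease, was at 0.289, 418, 0.279 and 0.131 FPKM in Klebsiella and 2.49, 1.38, 112 and 2.99 FPKM in Lactobacillus recipients. Without the libraries of high Ctrb1 (Klebsiella recipient 2 and Lactobacillus recipient 3), Galnt5, Chst4 and B4galt1 were left (4.92%, against 2.60% of all genes).

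Genes of goblet cells, the mucus-secreting cells, did not all share an order over the libraries. Spdef, a transcription factor of goblet cells, was at 77.4, 92.2, 90.5 and 77.5 FPKM in Klebsiella and 68.6, 70.3, 30.9 and 28.7 FPKM in Lactobacillus recipients, with no overlap. Muc2, the secreted gel-forming mucin of the colon, was at 2611, 4139, 4305 and 2381 FPKM in Klebsiella and 2396, 2858, 1289.5 and 1159 FPKM in Lactobacillus recipients. Lactobacillus recipients 3 and 4 held the least Spdef, Muc2, Agr2 and Ern2, and the rest of the 9 goblet cell genes had another lowest pair. Among the members this pair was lowest for Galnt3, Galnt5, B3gnt6, Gcnt4, B4galt6, B3gnt9, St3gal1, Fut1 and Chst11. The share of all genes with this pair lowest was not counted. Over the 9 goblet cell genes 7 differences were positive, against 46.4% of all genes. Of these, 3 (Spdef, Muc2 and Ern2) had an unadjusted p under 0.05 (limma), or 33.3% of the list, against 6.07% of all genes. The list was chosen with earlier results of these data known. The summed level of all 9 was 15791 to 17768 FPKM in Klebsiella and 10435 to 17778 FPKM in Lactobacillus recipients. Tff3, a trefoil peptide of mucus, was at 1235, 2012, 1885 and 1406 FPKM in Klebsiella and 1786, 1174, 1931 and 3154 FPKM in Lactobacillus recipients. Zg16, a mucus lectin, was at 862, 3600.0, 3239.8 and 1712 FPKM in Klebsiella and 1889, 1685, 2738 and 3679 FPKM in Lactobacillus recipients. Both had negative log2 differences, -0.24 and -0.22, and were highest in Lactobacillus recipient 4. Clca1, another secreted protein, was at 4971, 3575, 3378 and 7474 FPKM in Klebsiella and 5799, 967, 2791 and 4501 FPKM in Lactobacillus recipients, lowest in Lactobacillus recipient 2. The part of goblet cells in the differences of the members was not tested.

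**Figure D4:**
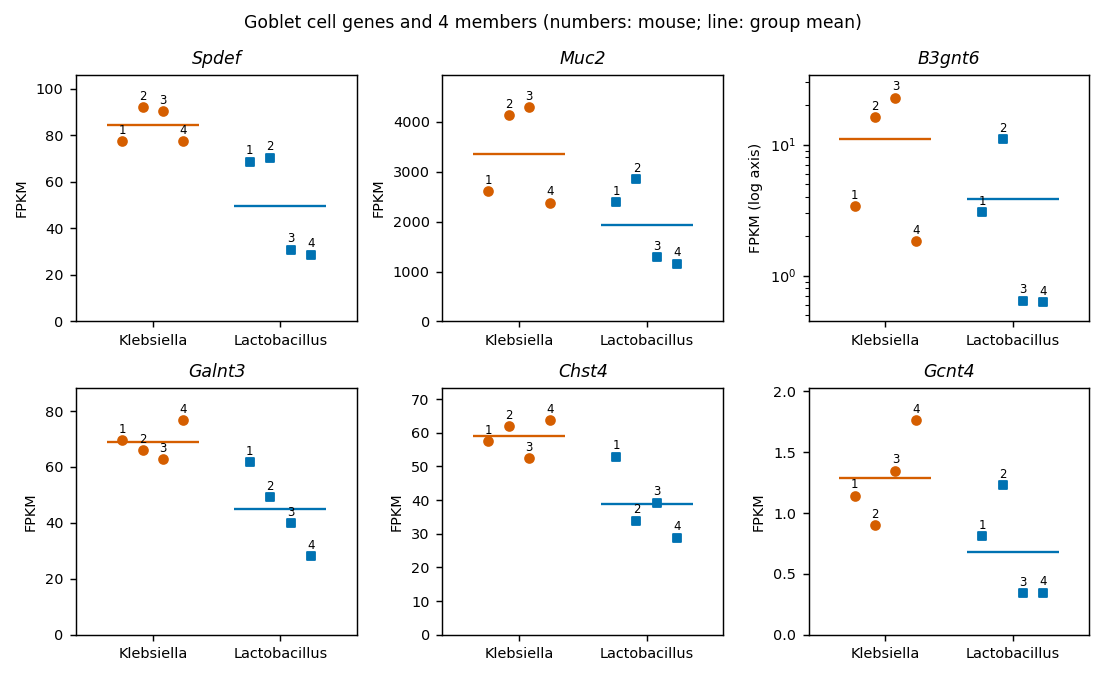
FPKM by mouse (numbers) of the goblet cell genes Spdef and Muc2 and of 4 members in Klebsiella (left) and Lactobacillus recipients (right), with B3gnt6 on a log axis and group means as lines. Lactobacillus recipients 3 and 4 are the lowest libraries for Spdef, Muc2, B3gnt6, Galnt3 and Gcnt4, and recipient 4 is the lowest for Chst4.

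Some genes of other cell types and of gut position also differed in level between the groups, none past the adjusted threshold (limma). An unadjusted p under 0.05 (limma) was reached by 100% of the adipocyte and tuft cell genes, against 6.07% of all genes. It was reached by 0% of the colonocyte, smooth muscle, pancreatic acinar, plasma cell, leukocyte, endothelium, fibroblast and small intestine genes tested. Of the position genes 40.0% reached it (Hoxd13 and Hoxb13), while Hoxa13, Hoxb6 and Hoxd10 did not. The 4 adipocyte genes had negative differences and summed to 1.83 to 19.1 FPKM in Klebsiella and 24.3 to 232 FPKM in Lactobacillus recipients. Adipoq, the adipocyte hormone adiponectin, was at 0.138, 1.65, 0.937 and 1.698 FPKM in Klebsiella and 2.73, 2.43, 5.104 and 21.04 FPKM in Lactobacillus recipients. Lactobacillus recipient 4, the highest in these, was also the highest in B4galt1, Fut9 and Gcnt1. The 6 genes of tuft cells, sensory cells of the epithelium, all had positive differences with an unadjusted p under 0.05 and summed to 32.1 to 40.1 FPKM in Klebsiella and 18.3 to 23.7 FPKM in Lactobacillus recipients. Hoxd13, also distal in the gut, lay at 46.3, 3.25, 2.198 and 8.03 FPKM in Klebsiella and 43.9, 19.1, 27.3 and 39.2 FPKM in Lactobacillus recipients, and with its log2 level as a covariate 4 of the members (6.56%) had an unadjusted p under 0.05, against 10.04% of all genes in that fit. Galnt5, Chst4 and Galnt3 were among them and B4galt1 was not. The part of these cells and of position in the members' differences was not tested.

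A different pattern ran across both groups of recipients. In 7 members, or 11.5%, the highest libraries were Klebsiella recipient 3 and Lactobacillus recipient 2, the pair with high Hoxb6, as in 5.19% of all genes, and in 4 members, or 6.56%, this pair was the lowest, as in 1.80% of all genes. The pair was highest for Gcnt3, Fut2, Galnt10, Galnt4, B3galt4, B3gnt9 and St3gal5, the sialyltransferase that makes the ganglioside GM3. It was lowest for B3gnt7, B3gnt5, St3gal4 and St3gal6. Gcnt3 was at 57.3 and 36.6 FPKM in this pair and at most 21.5 FPKM elsewhere. B3gnt7 was at 139 and 164 FPKM in the pair and at least 234 FPKM elsewhere. For Fut2, Galnt10, Galnt4, B3galt4, B3gnt9, B3gnt5, St3gal4 and St3gal6 the gap to the nearest library was small beside the spread of the others. Galnt10 was at 74.1 FPKM in Lactobacillus recipient 2, against 72.9 FPKM in Klebsiella recipient 2. B3gnt6 was high in the pair and in Klebsiella recipient 2. The pair was picked for Hoxb6 in these data, so no test was made. Without it, 7 members (11.5%) had an unadjusted p under 0.05 between the recipients, the same 7 as with it, against 8.06% of all genes in that fit.

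**Figure D5:**
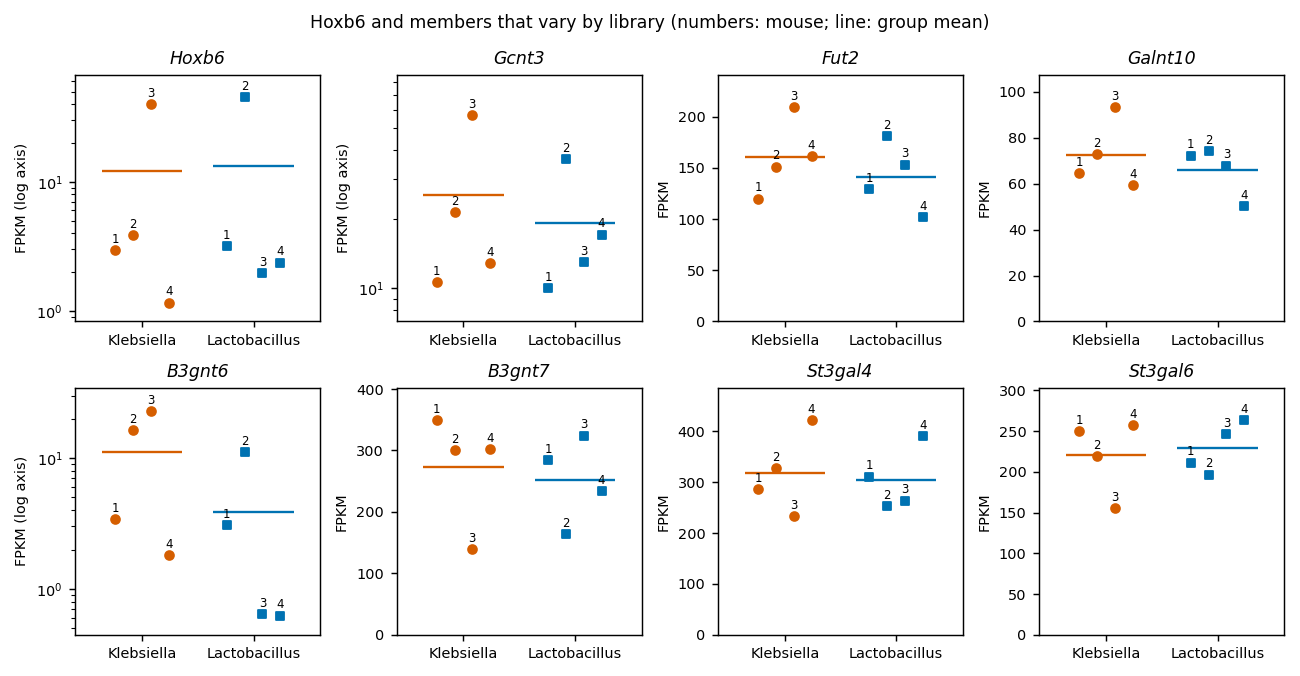
FPKM by mouse (numbers) of Hoxb6 and 7 members in Klebsiella (left) and Lactobacillus recipients (right), with Hoxb6, Gcnt3 and B3gnt6 on log axes and group means as lines. Klebsiella recipient 3 and Lactobacillus recipient 2 are the highest for Hoxb6, Gcnt3, Fut2 and Galnt10, and the lowest for B3gnt7, St3gal4 and St3gal6.

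Few genes of a wider glycosylation list differed. Its 59 names were the Cosmc chaperone gene C1galt1c1, the St6galnac, St8sia, B4galnt and B3galnt transferases, and A4gnt, Ggta1, Abo, Galntl5 and Galntl6. It also held Ogt, Pofut1, Pofut2, Pomt1 and Pomt2, and the enzymes and transporters of activated sugars and sulfate. Of these, 52 table entries were tested, with 27 positive and 25 negative differences. None passed the adjusted threshold of 0.05, and a single gene had an unadjusted p below it (limma): B4galnt3, which forms the LacdiNAc unit. B4galnt3 was at 35.7, 19.9, 18.3 and 23.9 FPKM in Klebsiella and 29.9, 25.9, 44.4 and 43.7 FPKM in Lactobacillus recipients, a log2 difference of -0.56. This is 1.92% of the list, against 6.07% of all genes. It held in 3 of 8 fits with a library left out, and the difference was -0.10 with Hoxd13 as a covariate. Groups did not overlap in 3.85% of the list, against 2.99% of all genes: for St6galnac3, a sialyltransferase, at 1.09, 0.894, 1.17 and 0.908 FPKM in Klebsiella and 0.686, 0.676, 0.663 and 0.844 FPKM in Lactobacillus recipients, and for Gfpt1, the first enzyme of hexosamine synthesis, at 577, 664, 565 and 610.1 FPKM in Klebsiella and 522, 556, 565 and 437 FPKM in Lactobacillus recipients. The Gfpt1 groups were barely apart, at 565.46 FPKM in Klebsiella recipient 3 and 565.23 FPKM in Lactobacillus recipient 3. The log2 differences of St6galnac3 and Gfpt1 were 0.31 and 0.22. The highest of the list's sialyltransferases was St6galnac6, at 498 to 626 FPKM. C1galt1c1, which C1galt1 needs to fold, was at 28.99, 32.3, 49.3 and 30.9 FPKM in Klebsiella and 27.2, 36.8, 24.9 and 34.04 FPKM in Lactobacillus recipients.

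Among the mucins that carry the chains, 6 were tested, 3 with a positive and 3 with a negative difference. Muc4 and Muc2 had positive differences of 0.92 and 0.86, and Muc13 and Muc3 negative ones of -0.45 and -0.51, each at an unadjusted p under 0.05 and none past the adjusted threshold (limma). They are 66.7% of the mucins tested, against 6.07% of all genes, in a list chosen with earlier results of these data known. Muc4 and Muc13 kept this p in all 8 fits with a library left out, Muc3 in 7 and Muc2 in 4. Muc4, a membrane mucin, was at 37.8, 61.9, 45.6 and 45.1 FPKM in Klebsiella and 33.4, 24.9, 21.5 and 20.1 FPKM in Lactobacillus recipients. Muc3, another membrane mucin, was at 760.4, 989.8, 815 and 841 FPKM in Klebsiella and 1046, 935, 1430.4 and 1505 FPKM in Lactobacillus recipients. Groups were apart for Muc4 and Muc13 (33.3% of the mucins tested, against 2.99% of all genes) and overlapped for Muc2 and Muc3.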

How the data were processed

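Total RNA was taken with Trizol from frozen intestine and made into libraries with an Illumina TruSeq kit, per the labels' protocols. DESeq2 1.10.1, HTSeq 0.6.0, STAR 2.5.1b and CASAVA are named, without their roles, in the submitters' processing notes. The authors deposited FPKM values per gene, a count of reads per library after their filter, and 2 percent values, bases at quality 30 or above (90.65% to 94.57%) and GC content (49.37% to 51.20%). Symbols for 49326 of 49585 identifiers, positions and exon overlaps came from GENCODE release M21 (GRCm38), which may differ from the authors' own build and gene models (not given in the sources used here).

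Groups were compared on log2(FPKM + 0.5) for 16865 genes whose mean was 0.5 FPKM or more, using limma 3.58.1 in R 4.3.3 (trended prior variance; two-sided p adjusted over all genes by Benjamini-Hochberg, threshold 0.05), tested on simulated data. Whole reads were recovered from the FPKM steps in 26962 of the 26963 genes that 2 or more libraries listed above 0, within a relative tolerance of 1e-09. A factor common to all reads of a gene would be missed. Python 3.11.15, pandas 2.3.3 and matplotlib 3.10.9 did the rest.

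Members given in every library were Galnt5, Fut2, the 3 of highest mean in each role, those with an unadjusted p under 0.05 or groups apart, and the 5 of largest SD. Other genes named with values were chosen after their values were seen. Members, roles and lists were chosen with earlier results of these data known. Alternatives were pseudocounts, filters, scalings, weights, a robust prior, the mouse number as a block, log2 Hoxd13, 2 pairs of libraries, voom and each library left out.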

Additional observations from a re-analysis of the deposited data

Results flagged for a closer look

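In 6 of the 122 sets of 4 libraries (61 members in each group), 1 library lay far from the other 3 on the log2 scale, by Dixon's criterion for 4 values at 95%. Chance alone flags about 1 in 20 such sets, which is close to this number. Gcnt1 in Lactobacillus recipient 4 was at 19.6 FPKM, against 6.13 to 7.29 FPKM in the other 3. B3gnt7 in Klebsiella recipient 3 was at 139 FPKM, against 300.4 to 349.5 FPKM in the other 3. B4galt5, a galactosyltransferase of glycolipids, in Lactobacillus recipient 1 was at 74.9 FPKM, against 51.2 to 53.7 FPKM in the other 3. Galnt7 was lowest in the same library, at 74.8 FPKM, against 83.6 to 84.96 FPKM in the other 3. In Klebsiella recipient 4, Galnt16 was at 0.779 FPKM, against 1.17 to 1.26 FPKM in the other 3, and Chst2, a GlcNAc 6-O-sulfotransferase, at 0.857 FPKM, against 1.36 to 1.43 FPKM in the other 3. That library had 90.65% of bases at quality 30 or above, against 94.03% to 94.57% in the other 7, and its part in these values was not tested.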

How the results depend on the processing

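Under 21 alternatives 0 genes were called, and the smallest adjusted p of a member was 0.314 (limma or voom). Genes at an unadjusted p under 0.05 numbered 1825 with array weights, 1693 with log2 Hoxd13 as a covariate, 438 without the pair with high Ctrb1 and 566 to 2004 with each library left out (566 without Lactobacillus recipient 3, 1825 without Klebsiella recipient 3, 2004 without Lactobacillus recipient 1). Members at that level numbered 4 with the covariate (6.56%, against 10.04% of all genes) and 3 without the Ctrb1 pair (4.92%, against 2.60%). With each library left out they numbered 4 to 9 (6.56% to 14.8%, against 3.36% to 11.88% of all genes). Of 147 medians by role under alternatives, 140 moved by less than the spread between replicates. The median of extending enzymes was 0.013 with the covariate, -0.019 without the Hoxb6 pair, 0.0095 without the Ctrb1 pair and -0.0063 to 0.092 with each library left out; that of core enzymes was -0.065 with the covariate and 0.089 to 0.44 with each library left out, that of initiating enzymes was -0.088 with the covariate and that of sialyltransferases 0.15 with array weights.

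Of 34 named genes 20 kept their sign throughout. With the covariate the sign turned for C1galt1 (-0.080), Gcnt3 (-0.78), B3galt5 (-0.16), Fut2 (-0.18), Galnt7 (-0.16), Galnt10 (-0.088), B3galt6 (0.12), St3gal6 (0.18) and St6gal1 (-0.29). Without the Hoxb6 pair it turned for B3galt5 (-0.038), Galnt7 (-0.031), B3galt6 (0.10), St3gal6 (0.014), St6gal1 (-0.040) and Chst12 (-0.14), and without the Ctrb1 pair for St3gal4 (-0.041). Array weights turned B3galt5 (-0.014) and St6gal1 (-0.031), voom B3galt5 (-0.00039), and the constant total and median-of-ratios factors B3galt6 (0.018 and 0.013). With each library left out, the differences ran from -0.23 to 0.62 for Gcnt3, -0.11 to 0.37 for B3gnt7, -0.10 to 0.14 for B3galt5, -0.14 to 0.015 for Fut8, -0.045 to 0.12 for Galnt7, -0.12 to 0.084 for B3galt6, -0.10 to 0.18 for St3gal4, -0.16 to 0.085 for St3gal6, -0.094 to 0.14 for St6gal1 and -0.15 to 0.077 for Chst15. The cause was not tested.

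Mice of the 2 groups share only a number: same-numbered libraries had correlations of deviations of -0.159 to 0.189. With the mouse number as a block 1027 genes (6.09%) and 5 members (8.2%) had an unadjusted p under 0.05. At mean levels near 1 FPKM, as for Gcnt4, B3gnt8 and Galnt17, libraries with 31 to 156 reads limit precision.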
